A study of Rattus norvegicus with 64 samples.

Results

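The genes described here are 10 genes of natural killer and cytotoxic lymphocytes, Gzma, Gzmb, Gzmk, Gzmm, Prf1, Nkg7, Klrd1, Klrk1, Ncr1 and Il2rb, measured in whole blood of 64 adult male Sprague-Dawley rats by RNA sequencing. They were found by symbol in the deposited gene tables, where they had 11 identifiers among the 26405 of the series, because Gzmb was listed under 2 of them. All 11 were listed in all 64 tables. The T-cell gene Cd3e, which encodes a chain of the T-cell receptor complex, was taken as the reference.

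Each rat was 85 to 90 days old and received 4 injections at intervals of 2 h, and blood was taken by cardiac puncture 3 h after the last one. Saline was given at 22.5 °C (saline control, 6 rats), at 16 °C (saline cool, 5 rats) or at 39 °C, where the surroundings raised the body temperature (saline EIH, environmentally induced hyperthermia, 16 rats). Amphetamine was given at 22.5 °C, where it produced hyperthermia (AMPH hyperthermic, 22 rats), or at 16 °C, where the cool surroundings prevented it (AMPH normothermic, 15 rats). Globin transcripts were depleted from the RNA of all 5 groups, and every value is one rat. Total counts per rat were 19055615 to 40530319. As whole blood was measured, fewer cells of a type and less RNA per cell cannot be told apart.

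Natural killer cells and cytotoxic T cells kill target cells by releasing the contents of cytotoxic granules. Perforin opens the target cell's membrane and granzymes, a family of serine proteases, then cleave proteins inside it. Receptors on the killer cell decide whether the granules are released, some of them activating and some inhibitory, and interleukin 15 and interleukin 2 sustain these cells through a shared receptor chain. In blood these lymphocytes leave and re-enter the circulation within hours under catecholamines and glucocorticoids.

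Among the members, Gzma, Gzmb, Gzmk and Gzmm encode granzymes, Prf1 encodes perforin and Nkg7 a membrane protein of the granules. Klrd1 encodes CD94, which pairs with NKG2 chains, Klrk1 encodes the activating receptor NKG2D, Ncr1 encodes NKp46, an activating receptor largely restricted to natural killer and related innate lymphoid cells, and Il2rb encodes the shared beta chain of the interleukin 2 and interleukin 15 receptors. Gzma and Gzmk lie next to each other on chromosome 2 in RefSeq's rat gene table, and Klrd1 and Klrk1 on chromosome 4, with 0 genes between them in either pair. RefSeq lists 4 genes or pseudogenes named for Gzmb, so reads of near-identical copies could be split between the 2 Gzmb identifiers, and the values of both are uncertain for that reason. They are called here Gzmb (ENSRNOG00000049976) and GZMB (ENSRNOG00000045973), as the tables spell them.

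The start regions of 4 of the members are shown as background, and their part in the members' levels was not tested. RefSeq's promoter table (build GRCr8) held 7 of the 10 genes by symbol, without Klrd1, Ncr1 and Il2rb. The entry for Gzmb was matched by symbol only and may not belong to either measured identifier. Each sequence is the 250 bases before the annotated start, on the gene's strand. Capitals mark matches, on either strand, to TCACAC (the core of a T-box site, the kind bound by T-bet and eomesodermin), TGTGGT (a RUNX core), AGGAAG (an ETS core) and TGAGTCA (an AP-1 site).
Gzmk, chr2:46582016-46582265, strand minus: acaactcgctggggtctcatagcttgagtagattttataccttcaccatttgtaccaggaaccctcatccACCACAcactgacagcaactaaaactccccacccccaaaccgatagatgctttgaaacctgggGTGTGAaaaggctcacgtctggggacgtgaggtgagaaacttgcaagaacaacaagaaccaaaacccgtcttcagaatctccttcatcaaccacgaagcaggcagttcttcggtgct
Nkg7, chr1:102981247-102981496, strand plus: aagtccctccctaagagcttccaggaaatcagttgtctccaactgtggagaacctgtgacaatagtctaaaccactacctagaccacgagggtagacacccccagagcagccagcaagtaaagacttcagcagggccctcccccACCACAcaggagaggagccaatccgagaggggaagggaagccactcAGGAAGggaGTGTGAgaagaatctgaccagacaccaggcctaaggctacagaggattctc
Prf1, chr20:29788790-29789039, strand plus: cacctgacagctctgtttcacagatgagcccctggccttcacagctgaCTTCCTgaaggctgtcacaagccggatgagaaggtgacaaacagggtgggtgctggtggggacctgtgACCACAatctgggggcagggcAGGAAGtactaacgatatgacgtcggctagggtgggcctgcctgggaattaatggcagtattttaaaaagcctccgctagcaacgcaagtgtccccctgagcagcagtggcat
Gzmb, chr15:34462470-34462719, strand minus: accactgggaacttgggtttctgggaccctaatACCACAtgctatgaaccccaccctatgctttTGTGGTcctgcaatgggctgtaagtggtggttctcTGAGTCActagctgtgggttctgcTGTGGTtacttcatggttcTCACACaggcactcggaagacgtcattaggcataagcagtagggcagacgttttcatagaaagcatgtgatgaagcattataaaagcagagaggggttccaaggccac

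TGTGGT was found in 7 of the 7 member promoters and in 14.5% of all 33469 promoters of the same length. TCACAC was found in 5 of the 7 (Gzmb, Gzmk, Gzmm, Klrk1 and Nkg7) and in 11.6% of all. AGGAAG was found in Nkg7 and Prf1 and in 29.5% of all promoters, and TGAGTCA in Gzmb and in 4.05% of all. Of the 18 matches in the 7 promoters, 0 overlapped another. These are matches of letters, and no binding was measured.

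Levels are normalized counts, which are counts divided by a size factor for each library. They are compared between rats and not between genes, since they are not corrected for gene length. The saline control group had the highest median of the 5 groups for 8 of the 11 identifiers, and the AMPH hyperthermic group the lowest median for 10 of 11. The exceptions at the top were Gzmb, with its highest median in the saline EIH group, Gzmm in the saline cool group and Ncr1 in the AMPH normothermic group. The highest group median exceeded the lowest by 1.98-fold for GZMB to 3.97-fold for Gzmk. When the groups were ordered by median, all 44 pairs of neighbours overlapped in range, and in 5 of 44 the medians were further apart than the larger of both SDs. Those 5 steps lay between the saline cool and saline EIH groups for Gzmk, between the saline control and AMPH normothermic groups for Gzmm, between the saline cool and AMPH normothermic groups for Klrk1, between the saline control and AMPH hyperthermic groups for Ncr1, and between the saline cool and saline EIH groups for Prf1.

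**Figure D1:**
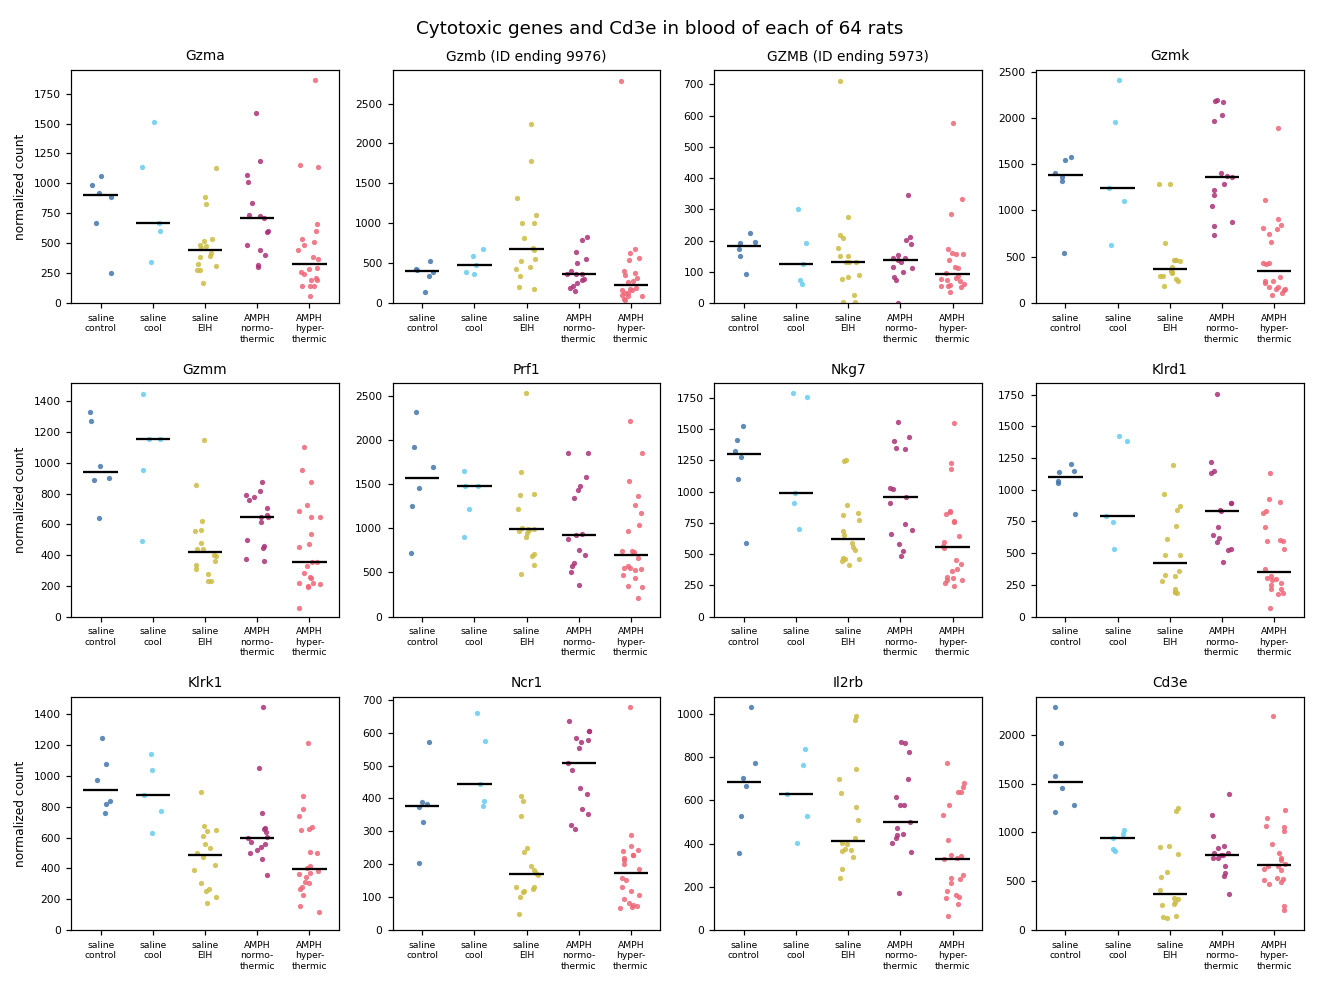
Normalized counts (linear axes from 0) of the 11 identifiers and Cd3e in each of the 64 rats, by treatment group; points are rats and bars are group medians. Gzmk and Ncr1 had their lowest medians in the saline EIH and AMPH hyperthermic groups, of 369 and 349 for Gzmk and 171 and 172 for Ncr1.

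Libraries were sequenced in 14 projects, named in the tables, and no project held both saline EIH and saline control rats. Transcripts of the cardiac muscle gene Mb, which can enter a sample at the puncture, exceeded 5000 counts in 5 rats. Of these, 2 were saline controls (replicates 20 and 22), and they were left out of the comparisons with the controls, as the study did. For the members, the AMPH hyperthermic rat of replicate 16 stood apart. It was the highest of the 8 AMPH hyperthermic rats used against the controls for 10 of the 11 identifiers, and at or above the lowest control for 11 of 11. Saline control replicate 20 was low for most members, with 543 normalized counts of Gzmk against 1316 to 1581 in the other 5 controls. Defining markers of T cells, B cells, monocytes, neutrophils, platelets and red cells were found in every group, with 0 of them at 0 in all rats of a group. The summed level of 5 cardiac muscle markers ran from 0.0 to 77613 normalized counts.

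The first comparison asked how blood changed with a body temperature raised by heat alone (saline EIH, 16 rats, against saline control, 4 rats). Gzmk, Gzmm, Ncr1, Klrd1, Nkg7 and Klrk1 were lower under heat, to between 0.327 and 0.496 of the control level, while Gzmb was not. In this comparison edgeR called 6 of 11 identifiers lower and 0 higher at an adjusted p under 0.05, where 16.5% of all genes tested were called in either direction and 9.38% lower. The median log2 fold change over the members was -1.01, beside 0.00 over all genes.

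Gzmk, a granzyme with trypsin-like specificity, had 187, 369 and 1289 normalized counts as the lowest, median and highest of the 16 saline EIH rats. The 4 controls had 1316 to 1581, so 16 of 16 EIH rats lay below every control. Among all genes tested, 1.61% were separated in this way. The log2 fold change was -1.61 ± 0.37 (SE, edgeR adjusted p = 0.0095). Gzmm, the granzyme found mainly in innate cytotoxic cells, ranged from 229 through a median of 417 to 1152, and 15 of 16 EIH rats were below the lowest control at 887. It fell by 1.29 ± 0.30 on the log2 scale (edgeR adjusted p = 0.011).

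Of the receptor genes, Ncr1, Klrd1 and Klrk1 were lower and Il2rb did not pass. Ncr1 had a lowest, median and highest value of 49.2, 171 and 407 under heat and 328 to 572 in the 4 controls. In 13 of 16 EIH rats Ncr1 was below all controls, and the log2 fold change was -1.17 ± 0.36 (edgeR adjusted p = 0.032). Klrd1 had 184, 419 and 1198 under heat against 1055 to 1146 in the controls, with 15 rats below and 1 rat above all of them. Its log2 fold change was -1.17 ± 0.40 (edgeR adjusted p = 0.048). Klrk1 had 175, 487 and 895 against 757 to 1075, with a log2 fold change of -1.01 ± 0.30 (edgeR adjusted p = 0.030). The granule membrane gene Nkg7 had 415, 617 and 1249 against 1098 to 1526, with a log2 fold change of -1.01 ± 0.25 (edgeR adjusted p = 0.013).

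The granule genes Prf1 and Gzma, with log2 fold changes of -0.83 ± 0.29 and -0.94 ± 0.33, just missed the threshold (edgeR adjusted p = 0.054 and 0.055). Il2rb was at -0.68 ± 0.29 (edgeR adjusted p = 0.10). Gzmb had 177, 677 and 2241 normalized counts as its lowest, median and highest value under heat and 343 to 525 in the controls. In 11 of 16 EIH rats Gzmb was above every control and in 3 it was below, and the log2 fold change of 0.88 ± 0.51 did not pass the test (edgeR adjusted p = 0.21). Its sign depended on the fit. Over 10 alternative fits the log2 fold change of Gzmb ran from -0.22 to 1.09, and 0 of them called it. GZMB ranged from 2.40 to 711.7 in the EIH rats around a median of 132, against 152 to 194 in the controls.

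Of 17 identifiers tested from a list of 21 other natural killer receptors and adaptors, 7 were lower and 1 was higher, and their median log2 fold change was -0.98. The lower ones included Crtam (log2 fold change -1.84), the NKG2D adaptor Hcst (-1.61) and Klrb1a (-1.20), and the higher one was Cd226 (1.87), which platelets also express. Of 10 tested identifiers of granule processing and release, Tnfsf10 (-1.94) and the granzyme B inhibitor Serpinb9 (-1.09) were lower, and Ctsc (1.59) and Lamp1 (1.09), which many cells use in lysosomes, were higher, and the median was 0.28. Of 15 tested regulators, cytokine receptors and products, Il2ra (-1.43), Ccl5 (-1.17) and Tbx21 (-1.07) were lower and 0 higher, with a median of -0.34. Of the T-cell list, 13 of 14 were lower, Cd3e with a log2 fold change of -1.70 ± 0.46 (edgeR adjusted p = 0.020).

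As the controls shared no project with the EIH rats, heat and project cannot be told apart. In a joint fit over all groups with a project term, 0 of 11 members passed, where 2.16% of all genes did. There edgeR gave 1 member an unadjusted p under 0.05, beside 22.9% of all genes. The members' median log2 fold change was -0.77, and 0 of 11, Gzmb included, had a positive one. Leaving out 1 control at a time left 1 to 4 members, with 1 without replicate 17, 1 without replicate 18 and 3 without replicate 21. In these fits 1.89%, 2.97% and 6.29% of all genes were called, in that order. Without replicate 19, 4 members and 14.3% of all genes were called. In the same comparison 2 of 3 platelet markers and 1 of 6 neutrophil markers were higher. The summed platelet markers ran from 14669 to 61704 normalized counts in the 6 controls and from 42463 to 221410 in the EIH rats, and the summed neutrophil markers from 32448 to 421620 and from 58482 to 324040. Their part in the members' values was not tested.

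The second comparison held the drug constant and asked what differed between hyperthermic and normothermic amphetamine rats, 10 against 10 from the 5 projects that held both, with the project in the model. Ncr1 and Gzmk were lower in the hyperthermic rats, to 0.310 and 0.276 of the normothermic level, while Cd3e was at nearly the same level in both. edgeR called 2 of 11 members lower and 0 higher, where 13.8% of all genes were called in either direction and 6.76% lower. The members' median log2 fold change was -0.68, and that of all genes was 0.00.

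Ncr1 had 67.8, 155 and 288 normalized counts as its lowest, median and highest value in the 10 AMPH hyperthermic rats and 308, 530 and 636 in the 10 AMPH normothermic rats. The groups did not overlap, which held for 0.493% of all genes in this direction. The log2 fold change was -1.69 ± 0.27 (SE, edgeR adjusted p = 0.00052), and the mean was lower in 5 of 5 projects, with differences of mean log2 values of -3.01 to -0.95. Projects H33741 and W26620 held only 1 rat of each AMPH group, and their differences were -3.01 and -2.95. Over all rats, the 22 AMPH hyperthermic rats had a median of 172 and a highest value of 678, in replicate 16, which belonged to a project without normothermic rats.

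Gzmk had 110, 175 and 1117 normalized counts in the AMPH hyperthermic rats and 739, 1324 and 2174 in the AMPH normothermic rats. In 7 of 10 hyperthermic rats Gzmk was below every normothermic rat, and the other 3 lay within their range. The log2 fold change was -1.86 ± 0.47 (edgeR adjusted p = 0.014), and its mean was lower in 5 of 5 projects, with differences of mean log2 values of -4.20 to -1.69. In projects H33741 and W26620, with 1 rat of each AMPH group, the differences were -3.31 and -4.20.

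**Figure D2:**
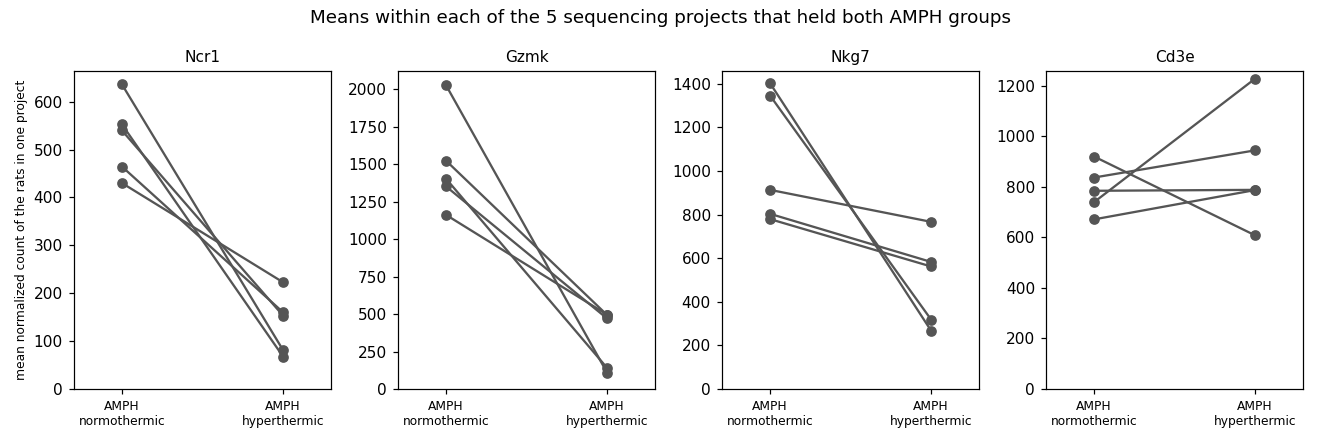
Mean normalized counts (linear axes from 0) of Ncr1, Gzmk, Nkg7 and Cd3e in AMPH normothermic and AMPH hyperthermic rats, with 1 line for each of the 5 sequencing projects that held both groups. Ncr1, Gzmk and Nkg7 were lower in the hyperthermic rats in 5 of 5 projects and Cd3e in 1 of 5. In projects H33741 and W26620 each point is 1 rat.

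The other 9 identifiers did not pass. Klrd1 was at -0.88 ± 0.31 (edgeR adjusted p = 0.064) and Il2rb at -0.85 ± 0.31 (edgeR adjusted p = 0.075). Klrd1, Il2rb and Nkg7, with Ncr1 and Gzmk, made 5 of 11 identifiers with a lower hyperthermic mean count in every project. On the mean of log2 values there were 7 of 11, with Gzmm and Gzma, whose mean counts were lower in 4 of 5 and 3 of 5 projects. The share of all genes that were lower in every project was not counted, so neither count can be set against it. Both identifiers of granzyme B were near 0 in this fit, Gzmb at -0.13 ± 0.63 and GZMB at -0.01 ± 0.48, and Prf1 was at -0.40 ± 0.34. The value of Gzmb depended on the fit. Over 8 alternative fits it ran from -1.23 to -0.11, and 1 of them called Gzmb lower. GZMB ran from -0.51 to -0.01 and was called in 0 of 8. Gzmb had a single hyperthermic rat at 2788, above all normothermic rats, while 4 hyperthermic rats were below all of them.

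Of the list of other natural killer receptors and adaptors, 5 of 16 were lower and 0 higher. Klrg1 (log2 fold change -1.76), Klrb1b (-1.64) and Klrb1a (-1.28) changed most, and the adaptors Hcst (-1.24) and Fcer1g (-0.64) were lower as well. Of 14 regulators and products, the chemokine Ccl5 (-1.38) and Il15ra (-0.89) were lower and IL15 (0.67) was higher. Cst7 (0.53) and Lamp1 (0.44), of granule processing, were higher. In the T-cell list 0 of 14 passed in edgeR, 0 had an unadjusted p under 0.05, and the median log2 fold change was -0.05. Of the other markers, 2 of 6 neutrophil genes and 1 of 5 red cell genes were lower, and 2 of 4 monocyte genes and 1 of 3 platelet genes were higher. Over all rats of each group, the summed neutrophil markers ran from 48505 to 994480 normalized counts in the AMPH hyperthermic and from 240800 to 734810 in the AMPH normothermic rats, and the summed monocyte markers from 3900 to 20859 and from 6951 to 14669. The part of these cells in the members' values was not tested. The call of Ncr1 and that of Gzmk held in 8 of 8 alternative fits each, with adjusted p-values up to 0.0076 for Ncr1 and 0.042 for Gzmk.

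The third comparison asked how amphetamine with hyperthermia differed from saline at the same temperature (the 8 AMPH hyperthermic rats numbered in the same way as the controls, against 4 controls). All 11 identifiers had a negative log2 fold change, from -1.17 for Gzmk to -0.79 for Ncr1, with a median of -0.98 beside -0.01 over all genes. None passed at an adjusted p under 0.05 by edgeR, 0 of 11, where 0.0% of all genes passed. At an unadjusted p under 0.05, edgeR counted 4 members (Gzma, GZMB, Nkg7 and Prf1), and 10.4% of all genes. DESeq2's Wald test called 0 of 11 members and 201 genes in all.

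Gzma had 138, 329 and 1138 normalized counts in the 8 AMPH hyperthermic rats and 672 to 1063 in the controls, with 7 rats below and 1 above all controls. The log2 fold change was -1.14 ± 0.42 (edgeR adjusted p = 0.43). Prf1 had 214, 892 and 1854 against 1460 to 2327, with 7 of 8 rats below all controls and a log2 fold change of -1.04 ± 0.44 (edgeR adjusted p = 0.46). The 1 rat of Gzma and Prf1 that was not below the controls was replicate 16. That rat was noticed because its member values were high. Without it the median log2 fold change was -1.26 and 10 of 11 members had an unadjusted p under 0.05, as 10.9% of all genes did, and 0 passed after adjustment. Leaving out any other 1 of the 12 rats gave 2 to 5 members with an unadjusted p under 0.05 and 0 after adjustment. Within the only project with several rats of both groups (6 against 3), the median was -0.80 and 0 passed. With all 22 AMPH hyperthermic rats the median was -1.11 and 0 members passed, where 5.94% of all genes did. In that fit edgeR gave 8 members an unadjusted p under 0.05, beside 29.8% of all genes. With the project as a covariate (7 rats against 4) the median was -1.08, and 0 members and 0 genes passed. There edgeR gave 10 of 11 members an unadjusted p under 0.05, beside 18.3% of all genes.

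In the cool surroundings amphetamine was compared with saline (15 AMPH normothermic rats against 5 saline cool rats). No member passed by edgeR, 0 of 11, where 0.224% of all genes were called, and 1 member had an unadjusted p under 0.05, as 13.8% of all genes did. The members' median log2 fold change was -0.24. DESeq2's Wald test called 1 member, where 2.62% of all genes were called. That member was Gzmm, with 361, 649 and 873 normalized counts as the lowest, median and highest value under amphetamine and 493, 955, 1153, 1154 and 1449 in the saline cool rats. The groups overlapped, and Gzmm was at -0.74 ± 0.21 (edgeR adjusted p = 0.12). Ncr1 was at -0.02 ± 0.18 and Gzmk at -0.03 ± 0.28, with saline cool values of 377, 392, 442, 573 and 659 for Ncr1. Only 1 AMPH normothermic rat shared a project with the saline cool rats, too few for a value within it. In the joint fit with a project term the members' median log2 fold change was -0.56, and 0 members and 0.0% of all genes passed. There edgeR gave 2 members an unadjusted p under 0.05, beside 10.3% of all genes.

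The saline cool and saline control groups differed in 0 of 11 members by edgeR, where 0.00817% of all genes were called, and by DESeq2's Wald test. Prf1 was the 1 member with an unadjusted p under 0.05 (0.048), which 26.1% of all genes had, at -0.43 ± 0.19 (edgeR adjusted p = 0.19). Ncr1 was at 0.25 ± 0.22 and Gzmk at 0.07 ± 0.32. Cd3e was lower in 5 of 5 saline cool rats than in all 4 controls (814 to 1027 against 1210 to 2283 normalized counts), a separation held by 5.66% of all genes, with a log2 fold change of -0.79 ± 0.17 that did not pass (edgeR adjusted p = 0.081). The 2 groups shared no project. Without saline control replicate 19, edgeR called 2096 genes in place of 1, and still 0 members.

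Hyperthermia from amphetamine and hyperthermia from heat were compared in 7 shared projects (10 AMPH hyperthermic against 14 saline EIH rats). No member passed in edgeR (0 of 11, where 0.0905% of all genes were called) or DESeq2, and 3 members had an unadjusted p under 0.05 in edgeR, as 11.7% of all genes did. Those were Gzmb at -1.27 ± 0.51 (edgeR adjusted p = 0.36), Il2rb at -0.68 ± 0.28 (0.37) and Prf1 at -0.61 ± 0.27 (0.39). Gzmb had 43.5, 333 and 2788 normalized counts under amphetamine and 177, 677 and 2241 under heat, and for Gzmb and Il2rb the mean of log2 values was lower under amphetamine in 7 of 7 projects and the mean count in 6 of 7. Ncr1 was at -0.46 ± 0.34 and Gzmk at -0.20 ± 0.43. A test of whether the amphetamine effect differed between 22.5 °C and 16 °C called 0 of 11 members and 0.0% of all genes by edgeR, and 0 members had an unadjusted p under 0.05, where 6.66% of all genes had. DESeq2 called 0 members there too.

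**Figure D3:**
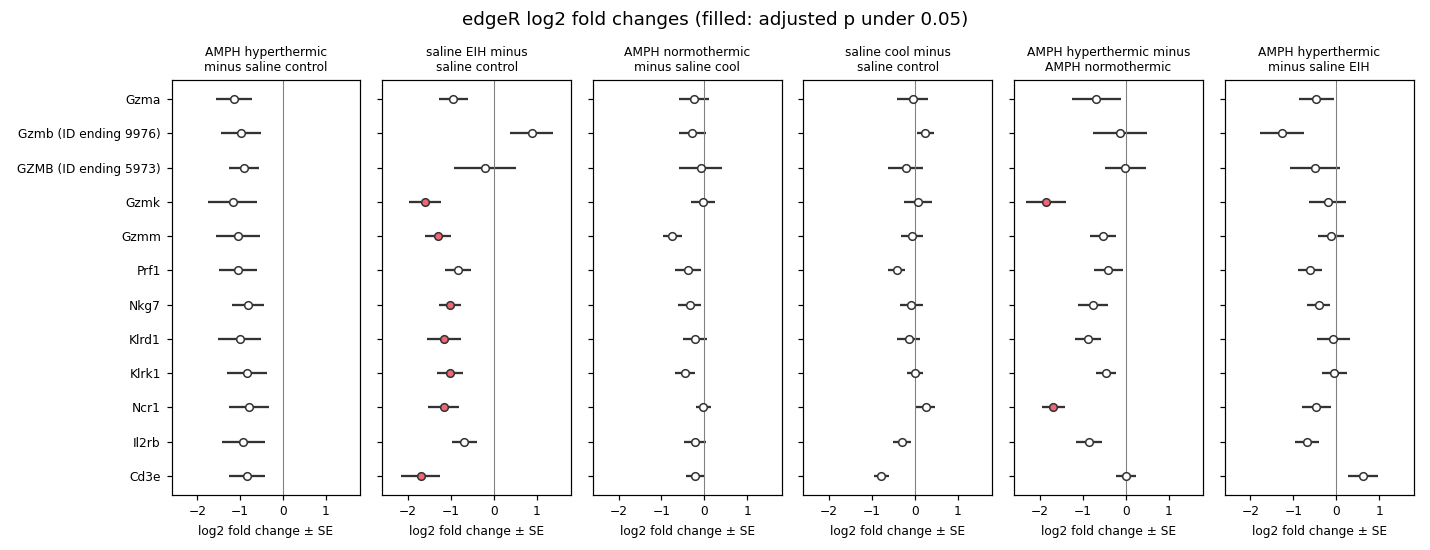
log2 fold changes (edgeR, x axis, ± SE) of the 11 identifiers and Cd3e (y axis) in 6 comparisons of treatment groups, with filled points at an adjusted p under 0.05. In saline EIH rats 6 members were lower than in the controls, and AMPH hyperthermic rats were lower than AMPH normothermic rats in Ncr1 and Gzmk, while Cd3e passed only in the first of these.

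To set the members against T cells, each was tested relative to Cd3e of the same rat. Under heat, 4 of 11 members were higher relative to Cd3e, and so were 86.2% of all genes, Cd3e itself being lower in these rats. The 4 were Gzmb (log2 fold change 3.57 ± 1.01, edgeR adjusted p = 0.0056), GZMB (2.45 ± 1.11), Il2rb (1.67 ± 0.68) and Prf1 (1.38 ± 0.62). Gzmk and Ncr1 were at 0.52 ± 0.61 and 0.82 ± 0.56. With the sum of 5 T-cell genes as the reference, 2 of 11 passed, Gzmb and Il2rb, where 80.1% of all genes were called. In the saline cool rats Gzmb (1.01 ± 0.26), Ncr1 (0.95 ± 0.31) and Klrk1 (0.76 ± 0.22) were higher relative to Cd3e, where 49.3% of all genes were called. With the sum of T-cell genes 0 members passed, where 10.8% of all genes were called.

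Between the amphetamine groups, Ncr1 was lower relative to Cd3e in the hyperthermic rats, with a log2 fold change of -1.81 ± 0.38 (edgeR adjusted p = 0.013), where 1.38% of all genes were called. The ratio of Ncr1 to Cd3e had a lowest, median and highest value of 0.0662, 0.228 and 0.426 in the 10 AMPH hyperthermic rats and 0.299, 0.713 and 1.32 in the 10 AMPH normothermic rats, and 8 of 10 hyperthermic rats lay below all normothermic rats. Gzmk was at -1.97 ± 0.56 relative to Cd3e (edgeR adjusted p = 0.094). In the remaining comparisons 0 members passed relative to Cd3e by edgeR, the only tool used for it, where 0.0% of all genes passed in AMPH hyperthermic against saline control, 0.048% in AMPH normothermic against saline cool and 0.0% in AMPH hyperthermic against saline EIH. At an unadjusted p under 0.05 they held 0, 0 and 6 members, beside 42.6%, 15.3% and 21.6% of all genes.

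**Figure D4:**
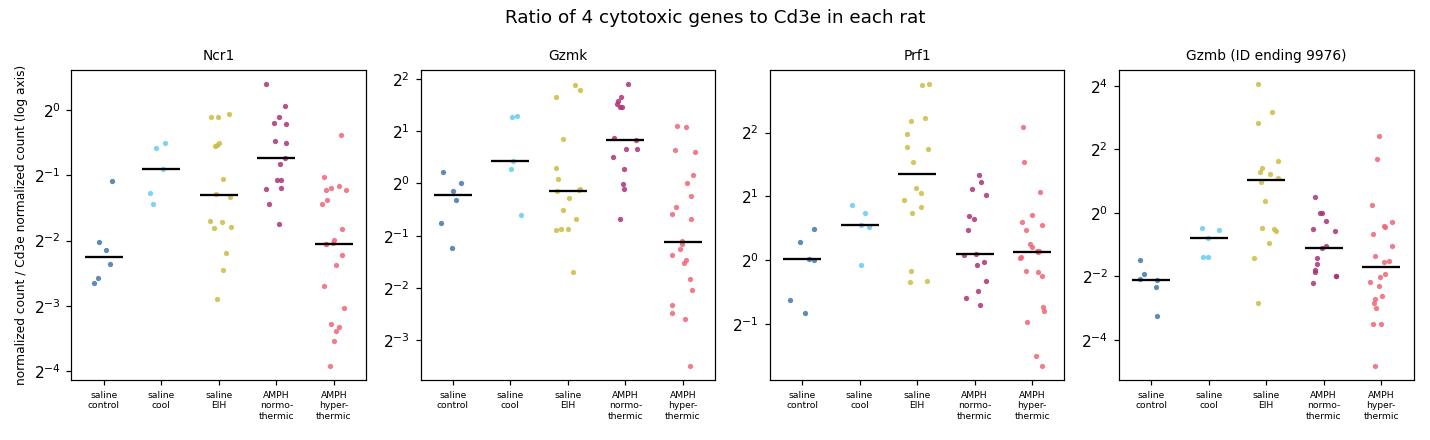
Ratio of the normalized counts of Ncr1, Gzmk, Prf1 and Gzmb to those of Cd3e in each of the 64 rats (log axes), by treatment group, with bars at the medians. Gzmb had its highest median ratio, 2.06, in the saline EIH group and 0.233 in the saline controls.

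Whether the members followed Cd3e from rat to rat was examined with a two-sided permutation test of 100000 resamples. Across the 22 AMPH hyperthermic rats, 12194 genes were tested. At an adjusted p under 0.05, 2 of 11 members correlated with Cd3e, a share near the 17.3% of all genes that did. Those were Klrk1 (Pearson r = 0.66, permutation p = 0.0011, adjusted p = 0.014, Spearman rho = 0.53, permutation p = 0.012, adjusted p = 0.081) and Gzmm (r = 0.57, permutation p = 0.0061, adjusted p = 0.040, rho = 0.51, permutation p = 0.016, adjusted p = 0.096). Without the 2 rats farthest from the median in Cd3e, r was 0.45 for Klrk1 and 0.56 for Gzmm. On values centred within projects r was 0.81 for Klrk1 (permutation p = 0.011, adjusted p = 0.076, 16 rats) and 0.49 for Gzmm, and 0 members passed. By rank 0 members passed as well.

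Across the 16 saline EIH rats and the 15 AMPH normothermic rats 0 of 11 members passed, where 1.26% and 0.686% of all genes did. An unadjusted permutation p under 0.05 was found for 4 and 1 members. The share of all genes with such a p was not counted, so these counts cannot be set against it. In the EIH rats, Klrk1 (r = 0.61, permutation p = 0.013, adjusted p = 0.24) and Ncr1 (r = 0.60, permutation p = 0.013, adjusted p = 0.24) had the highest values and Gzmb the lowest (r = -0.44, permutation p = 0.090, adjusted p = 0.49). The median r of the members was 0.41 in the EIH rats, 0.29 in the AMPH hyperthermic rats and 0.16 in the AMPH normothermic rats.

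As a description over the 64 rats after group means were subtracted (these rats share libraries with the comparisons above), 10 of 11 identifiers had a median Pearson r to the other members above their r to Cd3e. The exception was Klrk1, at 0.40 to the members and 0.56 to Cd3e. The 55 pairs had a median Pearson r of 0.52, from 0.04 for Gzmb and Klrk1 to 0.89 for Il2rb and Prf1. Gzmk was closest to the others with a median r of 0.69, and its highest values were 0.88 with Nkg7, 0.86 with Klrd1 and 0.85 with its neighbour Gzma. Klrd1 and Klrk1, also neighbours, had an r of 0.49. Gzmb followed Gzma (r = 0.81) but not Klrk1, and GZMB had a median r of 0.28. The r of Gzmb and GZMB with each other was 0.30. With Cd3e, r ran from -0.24 for Gzmb to 0.56 for Klrk1.

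**Figure D5:**
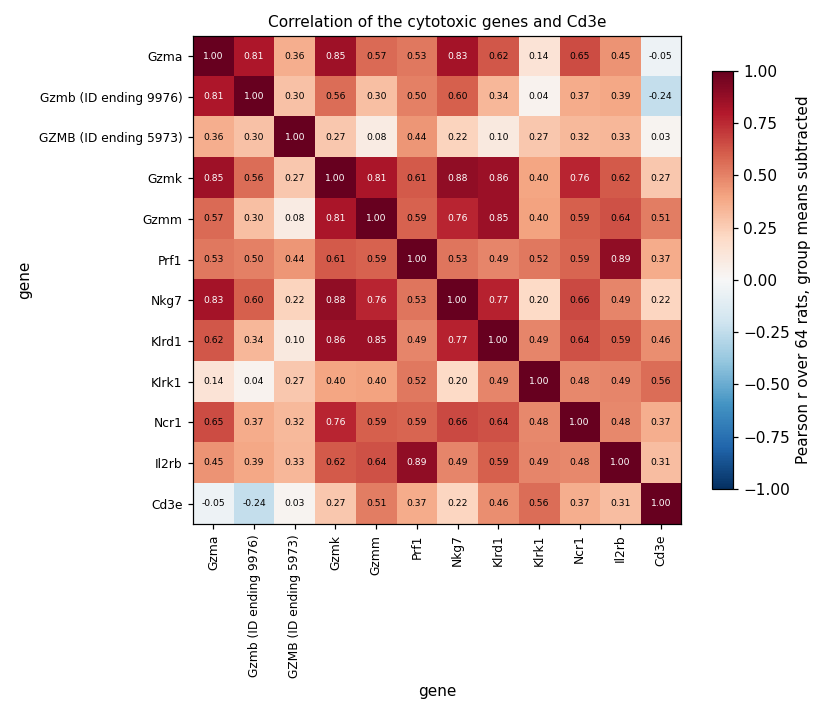
Pearson r between the 11 identifiers and Cd3e over 64 rats, on log2 values with group means subtracted (colour and printed number). The highest values were 0.89 for Il2rb and Prf1 and 0.88 for Gzmk and Nkg7, and Cd3e and Klrk1 had an r of 0.56.

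The 10 genes most like the members, of 12349 compared by their median r to the 11 identifiers over the 64 rats, were Klrb1a (0.73), Faslg (0.65), C1qtnf6 (0.65), Tbx21 (0.65), Cdhr1 (0.64), Klrg1 (0.63), Sh2d1a (0.60), Itm2a (0.60), Ccl5 (0.60) and Klre1 (0.59). Klrb1a, Klrg1 and Klre1 encode lectin-like receptors of killer cells, Faslg the Fas ligand, Tbx21 the transcription factor T-bet, Sh2d1a the adaptor SAP and Ccl5 a chemokine stored by cytotoxic cells. Cd3e was at position 321 with a median r of 0.31. These 10 genes were picked for varying with the members in the same rats, so their calls are not independent of those of the members. Under heat against the controls 9 of them were lower, where 9.38% of all genes were. In the AMPH hyperthermic against the AMPH normothermic rats 6 were lower, where 6.76% of all genes were. Cdhr1, a cadherin-related gene, had the most negative log2 fold change of the 10 in both, -1.92 and -2.02.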

How the data were processed

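RNA-seq of globin-depleted whole blood was deposited by the authors as 1 table of RSEM expected counts per gene and rat, 64 in all, and per the labels' processing notes and the study's methods made with CASAVA 1.8.2, Bowtie 0.12.9 and RSEM 1.2.0 against Ensembl gene models of rn5. Each table is 1 library, and replicates were not pooled. The expected counts were rounded to whole numbers. Of the 26405 genes, 17366 were in all tables; a gene missing from a table was treated as not measured. Total counts ran from 19055615 to 40530319 per rat (median 27542432). Rows without a symbol were kept under their identifier.

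Groups came from the sample labels. Each comparison was fitted with edgeR 4.0.16, with TMM scaling and the quasi-likelihood test. Genes with low counts were filtered out first, with a count minimum of 10. The p-values were adjusted over all genes tested by the Benjamini-Hochberg method, with 0.05 as the threshold. Comparisons of amphetamine groups with each other or with saline EIH rats used shared sequencing projects, with the project as a covariate. Saline controls over 5000 Mb counts were left out. For tests relative to Cd3e, the log of its count plus 0.5 entered as an offset. Normalized counts were made with DESeq2 1.42.0 size factors. Correlations used log2 of the normalized count plus 1 over genes with a mean of at least 10, with 100000 resamples. The p-values of the fits set a group difference against the spread between rats. Where 2 groups shared no project and the fit had no project term, they cannot tell group from project. Alternatives were DESeq2's Wald test and size factors, no filter, all rats, a joint fit, a block on the replicate number, and each rat left out where a group had few. The fits and permutations were tested on simulated data.

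The members, gene lists and tests were chosen with earlier results of these data known. Every member and Cd3e is named in each comparison or counted, genes of the lists are named up to 3 in each direction, and the 10 genes most like the members by median r. Promoter sequences came from RefSeq (GRCr8); coordinates of rn5 were not used here.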

Additional observations from a re-analysis of the deposited data

Results flagged for a closer look

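In the saline control group (6 rats) and the saline cool group (5 rats), each level and each ratio to Cd3e was checked for a rat whose gap to its nearest neighbour was large against the range of its group (Dixon's criterion at 95%). Chance alone marks about 1 in 20 such sets, and 3 of the 46 sets were marked. In saline control replicate 20, 1 of the 2 controls with over 5000 Mb counts, Gzmk was at 543 normalized counts against 1316 to 1581 in the other 5 controls, and the ratio of Klrk1 to Cd3e was 0.976 against 0.426 to 0.625. In saline control replicate 19 the ratio of Ncr1 to Cd3e was 0.473 against 0.159 to 0.246 in the other controls. Replicate 20 was in no comparison with the controls. Replicate 19 was, and without it 4 members in place of 6 were lower in the saline EIH rats. Of all genes, 8.29% in place of 9.38% were lower.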

How the results depend on the processing

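No member reversed its direction past the threshold under any alternative run. In saline EIH against saline control, 6 members passed, 0 in the joint fit with a project term and 1 to 4 when 1 control was left out. Of all genes, 16.5%, 2.16% and 1.89% to 14.3% passed in these fits. In AMPH hyperthermic against AMPH normothermic, 2 passed, where 13.8% of all genes did. In that comparison 4 passed with all rats and no project term (19.3% of all genes) and with DESeq2's Wald test (18.3%). The joint fit (11.8%) and the replicate block (7.91%) also gave 4. In AMPH normothermic against saline cool, 0 passed and 1 did with DESeq2's Wald test, where 0.224% and 2.62% of all genes did. Leaving out 1 rat at a time gave 0 members in AMPH hyperthermic and saline cool rats against the controls. In the amphetamine comparison at 16 °C only the 5 saline cool rats were left out in turn, and this gave 0 members too. With the sum of T-cell genes in place of Cd3e, 4 members became 2 under heat and 3 became 0 in the saline cool rats. The share of all genes called went from 86.2% to 80.1% under heat and from 49.3% to 10.8% in the saline cool rats. Of 2 members correlated with Cd3e in AMPH hyperthermic rats, 0 passed by rank and 0 on project-centred values. Of all genes, 17.3% passed in the main test, 9.53% by rank and 7.91% on project-centred values. The causes were not tested.

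The replicate numbers were not used to pair rats in the main fits. For 4 pairs of AMPH hyperthermic and saline control rats, the mean correlation of same-numbered rats' deviations was 0.24, from -0.07 to 0.54. Between rats of these groups with different numbers it was -0.08. The mean for same-numbered rats was -0.07 to 0.00 in the other comparisons. With the replicate block 4 members passed between the amphetamine groups (7 pairs) and 2 in the same rats without it. Of all genes, 7.91% passed with the block and 13.4% without it. In the other comparisons that share numbers, 0 members passed with the block. Between AMPH hyperthermic rats and saline controls (4 pairs), edgeR gave 10 members an unadjusted p under 0.05 with the block. Without it, the same rats gave 9. Of all genes, 5.41% had such a p with the block and 4.79% without it. Rats over 5000 Mb counts outside the controls were left out as an alternative chosen after seeing the data, which gave 7 in place of 6 members under heat. The share of all genes called was 16.5% with and without them. Group means moved by less than 1 SD under TMM scaling in all 60 cases.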
